A study of Rattus norvegicus with 7 samples.

Results

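The miR-181 family was followed through its 5 measured members, miR-181a-5p, miR-181a-1-3p, miR-181b-5p, miR-181c-5p and miR-181d-5p. They are the rat miRNAs named miR-181, from either arm of the hairpin, that the scanner software called detected. The rule that names them uses no measured difference between the groups, but the members were chosen with earlier results of these data known. They make up 5 of the 719 rat miRNAs on the array and 10 of its 1730 probes. The labels give the RNA as from rat primary skeletal muscle cells, isolated from limb muscle of newborn rats and purchased frozen at an early passage. The cells were grown to near confluence and switched to a low-serum medium to differentiate. None of the 7 skeletal muscle marker miRNAs on the array was detected, as described below. Total RNA was taken on day 11 of differentiation from 3 control samples, with no interleukin-6 (IL-6), and from 4 samples kept with recombinant IL-6 at 1 ng/ml. Each sample was labelled with the dye Cy3 and hybridised to its own 1-colour array. Titles and design give these groups, although the growth text attached to the control samples also names IL-6. Nothing in the labels says that replicates came from separate cultures, and every p-value here reflects the spread among these 7 samples alone, which may be technical.

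The miR-181 family is made from paired hairpins at separate genomic sites. The strand cut from the 5′ arm of each hairpin carries one common seed, the short stretch near the 5′ end that pairs with target mRNAs, so the 5p members are predicted to bind many of the same messages. The strand from the 3′ arm has a seed of its own and is usually the minor product. In mouse muscle, miR-181 is known to rise as myoblasts differentiate and to repress the homeobox gene Hox-A11, and in human cells the IL-6 effector STAT3 is known to activate the miR-181b-1 gene. IL-6 is a cytokine that immune cells and contracting muscle release.

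The mature sequences of the members, from the RefSeq table of build GRCr8, are shown because the family's grouping and the design of its probes both rest on them. Capitals mark the seed, bases 2 to 8 from the 5′ end.
rno-miR-181a-5p: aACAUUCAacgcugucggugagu
rno-miR-181b-5p: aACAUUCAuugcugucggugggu
rno-miR-181c-5p: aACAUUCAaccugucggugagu
rno-miR-181d-5p: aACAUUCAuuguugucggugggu
rno-miR-181a-1-3p: aCCAUCGAccguugauuguacc
The 5p members form 1 seed group, ACAUUCA, which in that table belongs to these 4 names of 693 mature names. The seed of miR-181a-1-3p, CCAUCGA, is carried by 2 names, itself and miR-181c-3p. Counting from 1 at the 5′ end, miR-181b-5p differs from miR-181a-5p by A9U, C10U and A21G. The step from miR-181b-5p to miR-181d-5p is the single substitution C12U. miR-181c-5p is 22 bases long against 23 for miR-181a-5p, and both share their first 10 and last 12 bases.

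The hairpins lie at 3 places. In rn4, the build of the array files, the longer miR-181a-5p probe maps to chr13:51132539-51132553 and to chr3:18650950-18650964, so the array cannot tell the products of the separate hairpins apart. The longer miR-181b-5p probe also has copies at chr13:51132722-51132735 and chr3:18652030-18652043. The target ends of miR-181a-5p and miR-181b-5p are 182 bases apart on chromosome 13 and 1079 bases apart on chromosome 3. miR-181a-1-3p, at chr13:51132574-51132592, comes only from the chromosome 13 hairpin and is the one member that marks that copy. miR-181c-5p and miR-181d-5p lie at chr19:25667411-25667428 and chr19:25667584-25667599, with 171 bases between their target ends; these listed spans are 1 base shorter than the probes. In the GRCr8 gene table, used for names only, the chromosome 13 hairpins lie within the long noncoding RNA LOC108352541. The chromosome 3 hairpins overlap the gene of the nuclear receptor Nr6a1 and the noncoding RNA LOC120101539, and the chromosome 19 pair overlaps no listed gene.

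Each member was read by 2 probes of unequal length, shown here as their 5′ to 3′ sequences because near-identical members could share signal. The probes pair with the 3′ part of the miRNA, and for the 5p members of chromosomes 13 and 3 they do not reach the seed.
miR-181a-5p, longer probe: actcaccgacagcgt
miR-181b-5p, longer probe: acccaccgacagca
miR-181c-5p, longer probe: actcaccgacaggttgaat
miR-181d-5p, longer probe: acccaccgacaacaatg
miR-181a-1-3p, longer probe: ggtacaatcaacggtcgat
The 14-base miR-181b-5p probe has 1 mismatch to miR-181d-5p when aligned at the 3′ end, with a longest matching run of 11 bases. The 17-base miR-181d-5p probe likewise has 1 mismatch to miR-181b-5p, and the 13-base miR-181b-5p probe has 1 to miR-181a-5p. The 15-base miR-181a-5p probe has 2 mismatches to miR-181c-5p and 3 to miR-181b-5p. How far these members hybridise to one another's probes was not tested, so each 5p value may hold some signal of its neighbours.

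The arrays ask whether exposure to IL-6 during differentiation altered the level of each miRNA. Values are log2 scaled intensities: the background-subtracted intensity of the brightest probe, scaled to the 75th percentile, on that array, of 268 probes well above background on all arrays. A control array detected 174 to 185 miRNAs and an IL-6 array 179 to 207, and 181 miRNAs were tested. All 7 arrays shared 1 slide, with the controls in row 1 and the IL-6 arrays in row 2, so the effects of row and of IL-6 cannot be told apart. The members were detected on every array, in 35 of 35 combinations of member and array. Each probe was printed as 10 spots, none saturated, and 24 of the 700 member spots over the 7 arrays were left out as outliers. Levels of different members are not set against each other, because each probe has its own brightness.

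With IL-6, miR-181a-5p, which pools its hairpins, rose by 23.9%, and miR-181a-1-3p, from the chromosome 13 hairpin, by 26.9%. They were 2 of the 5 members past the test, where 4.97% of all tested miRNAs passed it as higher. None of the 5 passed it as lower, against 4.42% of all tested miRNAs, nor was any lower at an unadjusted limma p under 0.05 (0 of 5), against 11.0%. With slide column as a block neither strand passed, with adjusted p in limma of 0.0509 for the 5p and 0.0725 for the 3p strand. All 5 members had a positive log2 fold change, against 57.5% of tested miRNAs, and the members' median was 0.29 against 0.02 over all tested. In 3 of the 5, every IL-6 array lay above every control array, which held for 11.6% of tested miRNAs. In RNA from a whole culture, more cells of a type and more RNA per cell cannot be told apart.

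miR-181a-5p, the guide strand of its hairpins, had log2 levels of 9.84, 9.75 and 9.78 on the control arrays. On the IL-6 arrays they were 10.22, 9.99, 10.10 and 10.08. The groups did not overlap: the lowest IL-6 array was above the highest control. The mean went from 9.79 ± 0.04 (SD, n = 3) to 10.10 ± 0.10 (SD, n = 4). The log2 fold change was 0.31 ± 0.06 (SE), with an adjusted p of 0.0240 in limma and a 95% interval from 0.17 to 0.45. By the exact permutation test over the 35 splits of the arrays the two-sided p was 0.0286, the smallest this design can give. In limma the adjusted p exceeded the 0.05 threshold when any 1 of 5 arrays was left out. It was 0.0765 without control 1, 0.0994 without control 2, 0.0647 without control 3, 0.0867 without IL-6 replicate 3 and 0.0660 without IL-6 replicate 4.

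miR-181a-1-3p, the opposite strand of the chromosome 13 hairpin, had the smallest spread among the controls, an SD of 0.02. Its control levels were 5.80, 5.78 and 5.83, and its IL-6 levels were 6.27, 6.11, 6.11 and 6.10. The groups were again separate, with IL-6 replicate 1 the highest array. The log2 fold change of 0.34 ± 0.05 (SE) had an adjusted p of 0.0143 in limma, with a 95% interval from 0.23 to 0.46. Its rank among the 181 tested miRNAs was 6 from the most increased, and that of miR-181a-5p was 9. Without IL-6 replicate 1 the change was 0.30 and the adjusted p in limma 0.00330. It missed the threshold without control 1, at 0.0585, and without control 2, at 0.0716.

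miR-181b-5p, which shares both clusters with miR-181a-5p, moved by a like amount and just missed the test. Its levels were 7.49, 7.42 and 7.36 in the controls. With IL-6 they were 7.88, 7.63, 7.71 and 7.65. No IL-6 array fell within the control range. The log2 fold change was 0.29 ± 0.07 (SE), a linear difference of 22.3%, with an adjusted p of 0.0532 in limma and an exact permutation p of 0.0286. IL-6 replicate 1 was the highest array here too: without it the change was 0.24 and the adjusted p in limma 0.0373. Of the 7 fits with 1 array left out, miR-181b-5p passed the test only in that 1.

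The chromosome 19 members showed smaller differences, neither past the test. For miR-181c-5p the control levels were 5.25, 5.37 and 5.35 and the IL-6 levels 5.51, 5.36, 5.51 and 5.62. Of the 4 IL-6 arrays 3 exceeded the highest control, and replicate 2 lay inside the control range. Its log2 fold change was 0.18 ± 0.06 (SE), with an adjusted p of 0.149 in limma and an exact permutation p of 0.0857. For miR-181d-5p the control levels were 5.45, 5.45 and 5.10 and the IL-6 levels 5.46, 5.38, 5.45 and 5.29. The groups overlapped, and control 3 was the lowest array. The log2 fold change of miR-181d-5p was 0.06 ± 0.10 (SE), with an adjusted p of 0.788 in limma and a 95% interval from -0.18 to 0.31. Without control 3 it was -0.05.

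**Figure D1:**
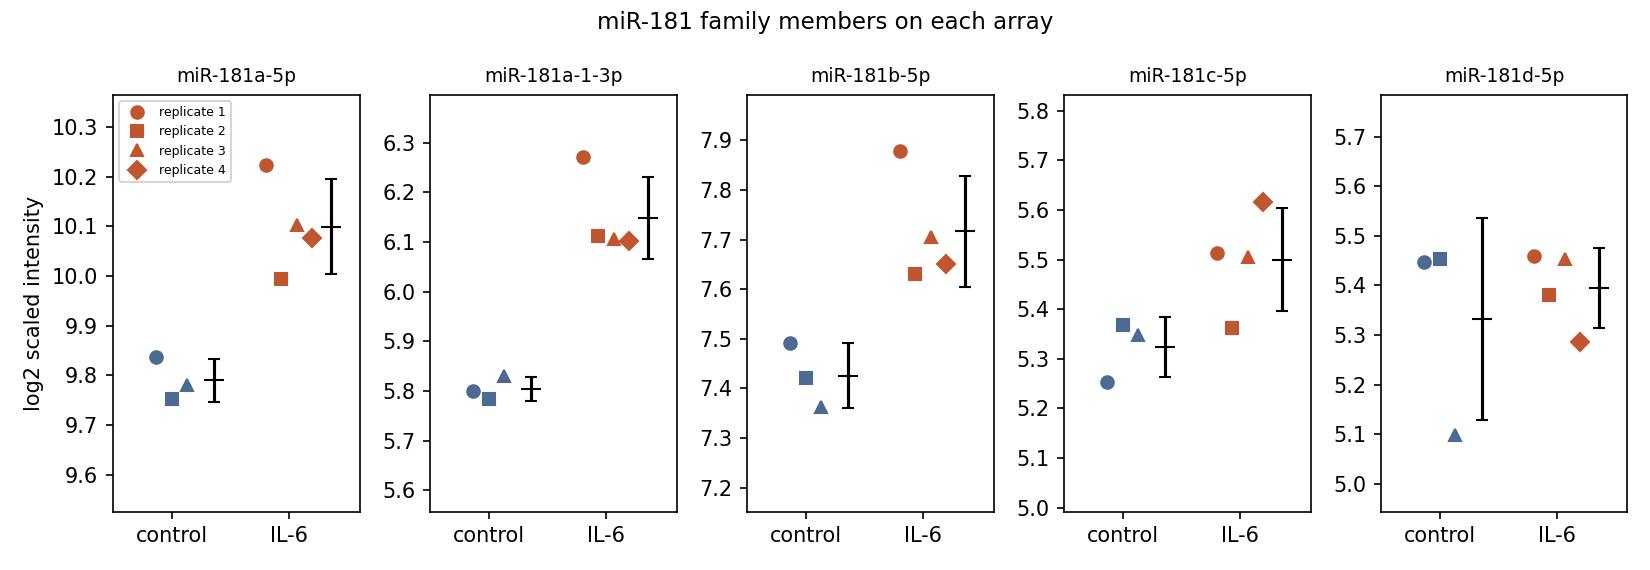
Log2 scaled intensity (y axis) of each miR-181 member on the 3 control and 4 IL-6 arrays (x axis), with 1 panel per member, marker shapes for replicates and bars for the mean ± SD. The y axes span equal widths but start at different values. The groups are separate for miR-181a-5p, miR-181a-1-3p and miR-181b-5p and overlap for miR-181c-5p and miR-181d-5p.

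The second, shorter probe of each member gives another reading of the same RNA on the same arrays. Of the 10 probes, 4 passed the test when each was fitted alone, against 3.42% of the 292 tested probes, and in 6 every IL-6 array lay above every control, against 15.4%. For miR-181a-5p the 15-base and 14-base probes gave log2 fold changes of 0.31 and 0.31, with an adjusted p in limma of 0.0272 for each. The deposited signals of the 14-base probe of miR-181a-5p spanned 369.9 to 643.7 intensity units, and those of the 15-base probe 779.7 to 1275 units. For miR-181a-1-3p the 19-base and 18-base probes gave 0.34 and 0.36, with adjusted p in limma of 0.0188 and 0.0234. The paired probes of both miR-181a strands therefore differed by less than 1 SE.

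The miR-181b-5p probes gave 0.29 for 14 bases and 0.27 for 13 bases, with adjusted p in limma of 0.0526 and 0.105. The 18-base miR-181c-5p probe gave 0.04 ± 0.09 (SE), where the 19-base probe gave 0.18 ± 0.07 (SE), and it was well above background on 6 of the 7 arrays. For miR-181d-5p the 17-base probe gave 0.06 and the 16-base probe 0.11 ± 0.17 (SE). The median SD between spots of a probe on an array was 0.09 to 0.21 on the log2 scale, highest for the 16-base miR-181d-5p probe.

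**Figure D2:**
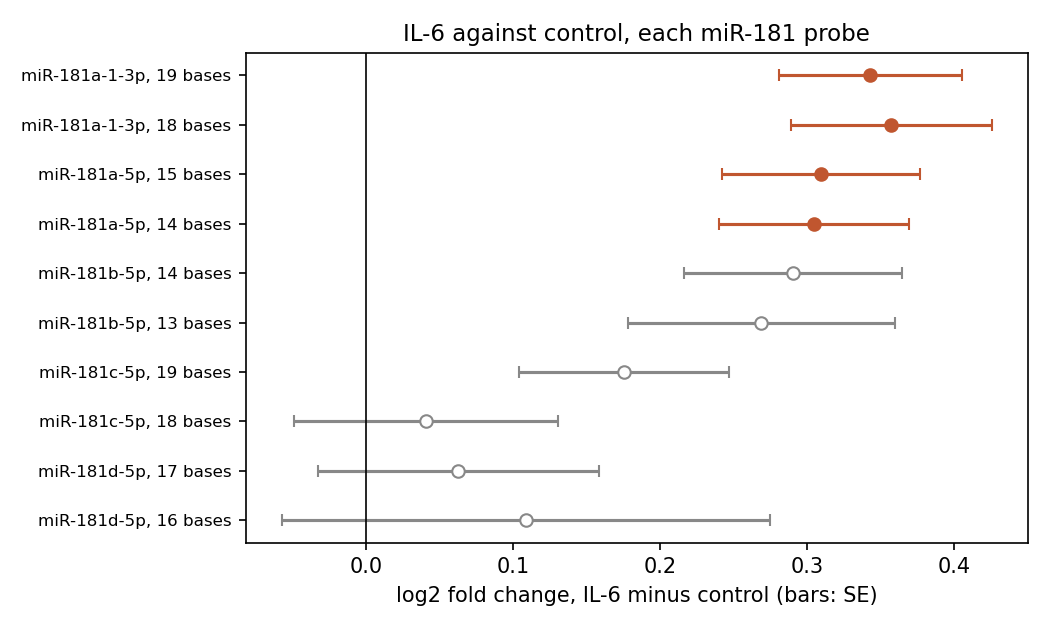
Log2 fold change, IL-6 minus control (x axis), of the 10 probes of the miR-181 members (y axis), with bars of 1 SE and filled points for a limma adjusted p under 0.05. The 4 filled points are the probes of miR-181a-1-3p and miR-181a-5p, at 0.31 to 0.36, and the chromosome 19 probes run from 0.04 to 0.18.

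One miR-181a-5p spot stood far from its copies. On IL-6 replicate 4, a spot of the 14-base probe read 26320 units, where the other 9 spots had a median of 551.0 and ran from 519.0 to 617.6. The scanner software marked it as an outlier, and it was left out. On control 3, a spot of the 17-base miR-181d-5p probe read 107.2 against a median of 35.9 for its copies and was left out as well. The level of miR-181a-5p given above is that of its 15-base probe, which does not hold the first of these spots. With all outlier spots kept, the log2 fold change of miR-181d-5p was -0.04.

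Whether members differ in their response was tested on the difference between 2 members within each array, in which the array scaling cancels. None of the 10 pairs passed the exact permutation test, and none had an unadjusted p under 0.05 (0 of 10). The smallest unadjusted p of this test is 0.0286, so no pair could pass alone after adjustment over 10 pairs. The change of miR-181a-5p minus that of miR-181a-1-3p was -0.03 (log2), with a 95% interval from -0.20 to 0.07. Its adjusted exact permutation p was 0.540, and the 5p level pools its hairpins. miR-181a-5p and miR-181b-5p, neighbours in both clusters, differed by 0.02, with an interval from -0.07 to 0.12. Differences between a product of the miR-181a and miR-181b clusters and miR-181d-5p were larger, at 0.25 for miR-181a-5p, 0.28 for miR-181a-1-3p and 0.23 for miR-181b-5p, each with an adjusted exact permutation p of 0.286. Their intervals reached 0.49, 0.48 and 0.45 and each included 0. The chromosome 19 neighbours miR-181c-5p and miR-181d-5p differed by 0.11, with an interval from -0.27 to 0.64. A call in one member and none in another is therefore not shown to be a difference between them.

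Over the 7 arrays, the log2 levels of miR-181a-5p, miR-181a-1-3p and miR-181b-5p ran together. Pearson's r was 0.969 between miR-181a-5p and miR-181a-1-3p and 0.977 between miR-181a-5p and miR-181b-5p. With miR-181a-5p, r was 0.756 for miR-181c-5p and 0.333 for miR-181d-5p, and between the chromosome 19 neighbours it was 0.010. These are descriptions over 7 arrays that share treatment groups, slide and scaling.

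Pairing arrays by their column on the slide gave differences between row 2 and row 1 in columns 1, 3 and 4, each column holding 1 array of either group. For miR-181a-5p they were 0.39, 0.35 and 0.30 on the log2 scale, and for miR-181a-1-3p 0.47, 0.32 and 0.27. For miR-181b-5p they were 0.39, 0.28 and 0.29. The positive sign for these members was fixed in advance, because every IL-6 array lay above every control array. For miR-181c-5p, whose groups overlapped, the differences were 0.26, 0.14 and 0.27. miR-181d-5p had 0.01, 0.00079 and 0.19. Over the tested miRNAs, the deviations of arrays in the same column correlated at 0.52, 0.19 and 0.13. Those of control and IL-6 arrays in different columns correlated at -0.44 to 0.29. With the column as a block the log2 fold changes of miR-181a-5p and miR-181a-1-3p were 0.34 and 0.36. Column 2 held only IL-6 replicate 2, so these changes do not draw on that array. With that block no tested miRNA passed in limma in either direction, with 35 higher and 17 lower at an unadjusted p under 0.05.

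The scaling between arrays moved the size of the change and the calls. With no scaling the log2 fold changes of miR-181a-5p and miR-181a-1-3p were 0.49 and 0.52, with adjusted p in limma of 0.0682 and 0.100, while the median of all tested miRNAs was 0.17. With scaling on the spike-in probes they were 0.50 and 0.53, that of miR-181b-5p was 0.48 with an adjusted p in limma of 0.0125, and the median of all tested miRNAs was 0.18. With the 75th percentile over all probes, which lies below the lowest signal counted as above background, they were 0.17 and 0.20, and no tested miRNA passed in limma in either direction, with 0 higher and 1 lower at an unadjusted p under 0.05. miR-181a-5p, miR-181a-1-3p, miR-181b-5p and miR-181c-5p kept a positive sign under each alternative run.

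**Figure D3:**
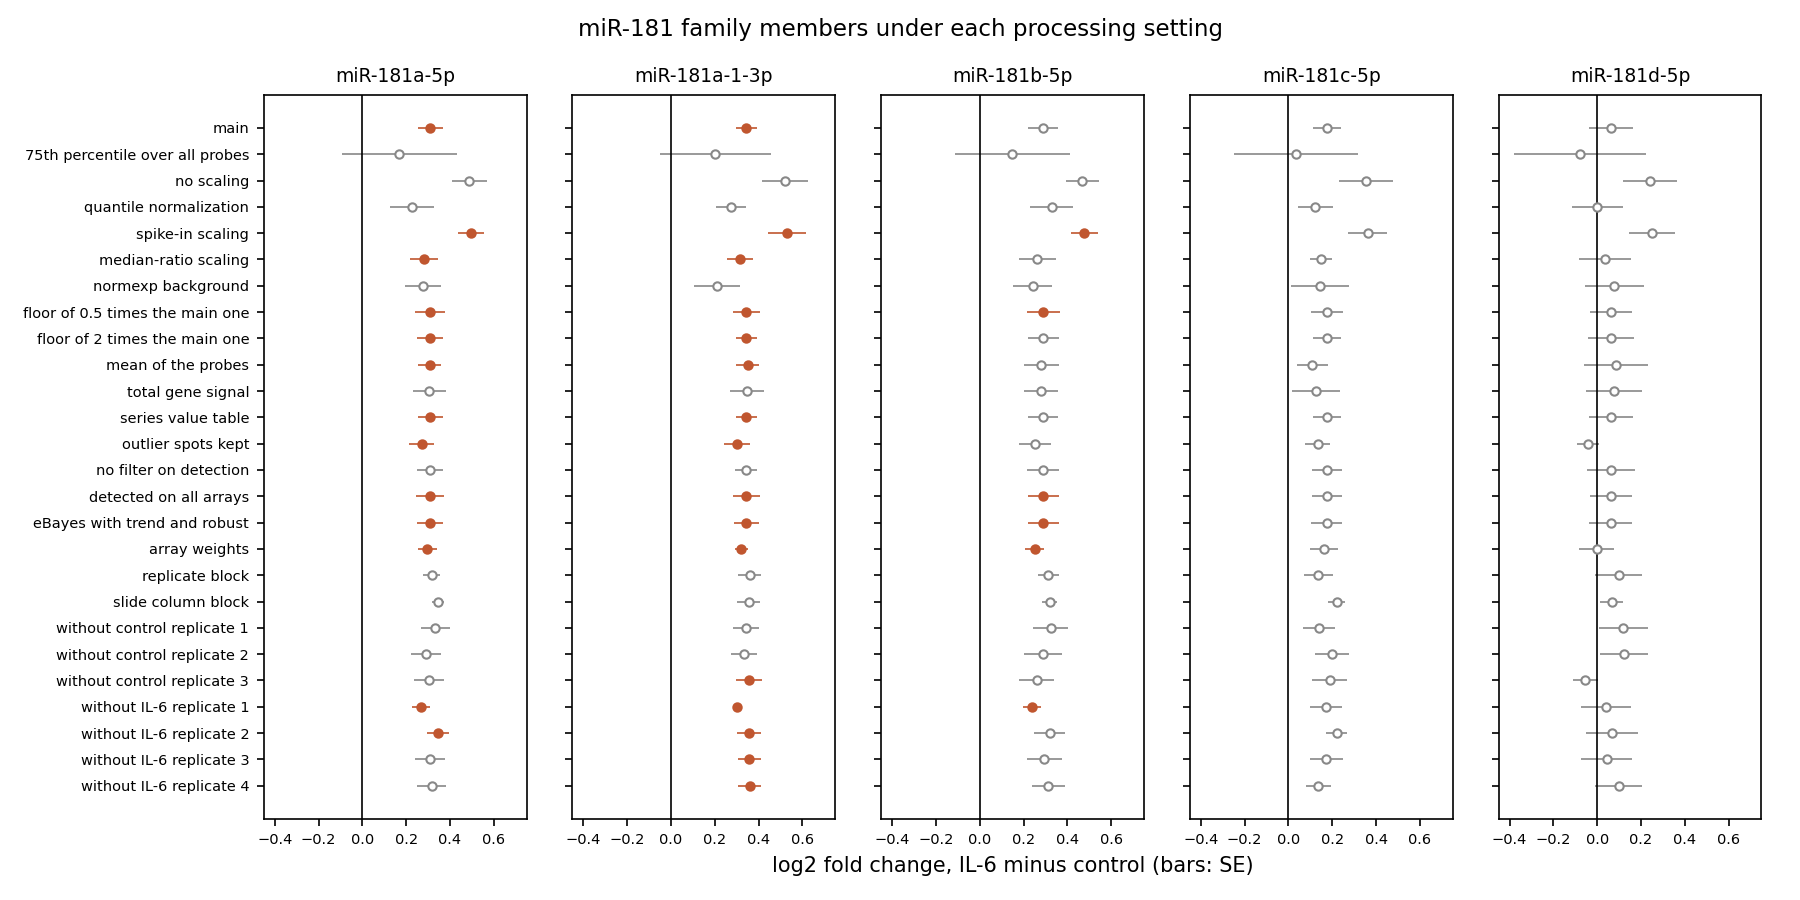
Log2 fold change, IL-6 minus control (x axis), of the 5 miR-181 members (panels) under the main processing and 25 alternatives (y axis), with bars of 1 SE and filled points for a limma adjusted p under 0.05. The values of miR-181a-5p run from 0.17 to 0.50 and those of miR-181a-1-3p from 0.20 to 0.53, and miR-181d-5p lies on both sides of 0.

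The remaining arms of the family were at background. The array also carries miR-181a-2-3p, miR-181b-1-3p, miR-181b-2-3p, miR-181c-3p and miR-181d-3p, 5 names with 10 probes. None was detected, and none of their 70 combinations of probe and array was well above background. Their highest signal was 9.07 units, for miR-181b-1-3p on IL-6 replicate 2, against a lowest signal above background of 12.9 units for any probe. The hairpin of miR-3570 lies on the strand opposite Mir181a-1, and its mature RNA is the exact reverse complement of miR-181a-1-3p. Its 2 probes were detected on 0 arrays, with a highest signal of -1.18 units after background subtraction.

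Among 152 other tested miRNAs above the floor on all arrays, the levels most like those of miR-181a-5p over the 7 arrays belonged to miR-379-5p (r = 0.968), miR-382-5p (r = 0.909) and miR-196b-5p (r = 0.903). With the group means removed, r was 0.915, 0.540 and 0.262. The levels most like those of miR-181a-1-3p belonged to miR-382-5p (r = 0.962), let-7b-5p (r = 0.937) and miR-193a-5p (r = 0.932), and with the group means removed r was 0.852, 0.466 and 0.859. The log2 fold changes of these miRNAs were 0.23 for miR-379-5p, 0.32 for miR-382-5p, 0.17 for miR-196b-5p, 0.24 for let-7b-5p and 0.27 for miR-193a-5p.

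Of 16 listed miRNAs related to IL-6 and STAT3, 12 were tested. Of these, 0 passed as higher and 1 as lower, where 4.97% and 4.42% of all tested miRNAs did, so the counts do not set the list apart. The log2 fold change was positive in 5 of the 12, with a median of -0.08 against 0.02 over all tested miRNAs. miR-132-3p, a miRNA induced by the transcription factor CREB, was the one that passed, lower by 0.27 ± 0.06 (SE) on the log2 scale with an adjusted p of 0.0408 in limma. miR-21-5p, a known STAT3 target in human cells, had a log2 fold change of 0.04 ± 0.08 (SE), and let-7a-5p had 0.02 ± 0.07 (SE). Of 20 listed miRNAs of myoblast differentiation, 12 were tested and 0 passed in either direction, which at those shares does not set this list apart either. The log2 fold change was positive in 7, with a median of 0.03. The brightest of the 12 tested, miR-125b-5p, had -0.04 ± 0.03 (SE).

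The labelled cell type was checked against miRNA markers. Of 8 skeletal muscle markers, 7 were on the array, among them miR-1-3p, miR-133a-3p and miR-206-3p, and none was detected. Their highest probe signal was 9.23 units, under the lowest signal above background, so these markers did not bear out the label. Markers of fibroblasts and smooth muscle were detected on all arrays for 5 of 6, with a summed scaled signal of 23367 to 25106 in the controls and 20799 to 24089 with IL-6. Of 7 nerve markers, all on the array, 3 were detected on all arrays and 4 on none. The summed signal of the 3 nerve markers detected was 117.6 to 141.4 in the controls and 130.9 to 144.9 with IL-6. No blood, endothelial or epithelial marker was detected on enough arrays to be tested, with highest probe signals of 9.86, 6.55 and 0.784 units. Of these, miR-223-3p, a myeloid miRNA, was called detected on 1 array, IL-6 replicate 1. No marker passed the test, and their part in the miR-181 result was not tested.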

How the data were processed

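Per the file headers, the deposited scanner files hold spot intensities from Agilent Feature Extraction 10.10.1.1. The processed signal used here is a background-subtracted intensity on a linear scale, not scaled between arrays. All 105665 entries of the deposited value table matched the total probe signal (tolerance 0.001). It is linear and uncentred, with column medians from -1.35 to 0.10.

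Control spots were removed, as were outlier spots, 2.88% to 3.84% of the other 14380. Spots were averaged per probe, scaled to the 75th percentile, on each array, of 268 probes well above background (at least a share of 0.5 of the spots) on all arrays, relative to the geometric mean, set to a floor of 15.7 units and log2 transformed. The brightest probe stood for a miRNA. The 181 miRNAs detected throughout 1 or both groups were tested by lmFit and eBayes of limma 3.58.1 (R 4.3.3), Benjamini-Hochberg adjusted, threshold 0.05; probes were fitted separately over 292. Pairs of members were compared by exact two-sided permutation tests adjusted over 10 pairs, with 95% intervals from inverting that test. The number of arrays limits the precision.

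Named miRNAs were all members, the 3 most correlated with each miR-181a strand, and up to 3 per list, those past the test first. Members and lists were chosen with earlier results of these data known. The alternatives were other scalings, background, floors, filters, probe summaries, limma options, blocks and leaving out each array, with scaling and filter then kept fixed.

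Replicate numbers were checked for pairing. Over the tested miRNAs, deviations of same-numbered arrays correlated at 0.52, -0.18 and 0.26, which does not settle the question. Same-numbered arrays were not taken as pairs, because the labels do not give the number as a pairing.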

Additional observations from a re-analysis of the deposited data

Results flagged for a closer look

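The 19-base miR-181a-1-3p probe on IL-6 replicate 1 had a log2 level of 6.27, apart from the 6.10 to 6.11 of the other 3 IL-6 arrays. Its gap to the nearest array took 0.938 of the group's range. This was 1 of 10 probes examined in the IL-6 group, and chance flags about 1 group in 20.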

How the results depend on the processing

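The main processing put 2 members and 9 of all tested miRNAs higher and 8 lower in limma, and these counts depended on several choices. Members, all higher and all lower miRNAs numbered 0, 0 and 0 under scaling to the all-probe 75th percentile (unadjusted p under 0.05: 0, 0 and 1), no scaling (4, 27 and 2), normexp background (2, 6 and 1), no filter on detection (4, 23 and 18) and a slide column block (4, 35 and 17). With the replicate block they were 0, 0 and 3 (unadjusted 3, 22 and 23), with the miR-181a-5p, miR-181a-1-3p and miR-181b-5p changes at 0.32, 0.36 and 0.31, each with a limma adjusted p of 0.0962, and the 18-base miR-181c-5p probe at -0.0087. Only the IL-6 group has a replicate 4, so the changes with the replicate block do not draw on that array. The labels do not give the replicate number as a pairing. Total gene signal gave 0, 3 and 2 (unadjusted 3, 19 and 8), quantile normalization 0 members (unadjusted 2), 7 higher and 11 lower, spike-in scaling 3, 4 and 0 (unadjusted 4, 41 and 3), and array weights 3, 29 and 18. Median-ratio scaling put 14 miRNAs lower and a floor of 2 times the main one 5. The splits into higher and lower were thus 11 to 14 with median-ratio scaling, 7 to 11 with quantile normalization, 4 to 0 on the spike-ins and 6 to 12 with outlier spots kept, against 9 to 8. Leaving out 1 array gave 0 to 3 members, 0 to 10 miRNAs higher and 0 to 7 lower; without control 1 all 3 counts were 0 (unadjusted 3, 19 and 16), without control 2 they were 0, 0 and 2 (unadjusted 4, 19 and 15), without IL-6 replicate 3 they were 1, 1 and 4, and without IL-6 replicate 4 they were 1, 1 and 5. Without control 3 there was 1 member. The cause was not tested.

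No member passed as lower and no pair of members passed the pair test under any alternative run. With 1 array left out the pair test cannot reach 0.05. Under the 25 alternatives fitted in limma, miR-181a-5p passed the test in 12, miR-181a-1-3p in 15, miR-181b-5p in 6, and miR-181c-5p and miR-181d-5p in 0. The sign of miR-181d-5p turned to -0.079 with the all-probe percentile, -0.043 with outlier spots kept, -0.0021 with array weights and -0.055 without control 3. Leaving out 1 array gave -0.055 to 0.123 for its 17-base probe, -0.112 to 0.232 for its 16-base probe, both lowest without control 3, and -0.052 to 0.091 for the 18-base miR-181c-5p probe. That probe was at -0.052 without control 1 and -0.0087 without IL-6 replicate 4. With quantile normalization miR-181a-5p and miR-181a-1-3p minus miR-181b-5p turned to -0.101 and -0.056. With normexp background miR-181a-5p minus miR-181a-1-3p turned to 0.068 and miR-181a-1-3p minus miR-181b-5p to -0.033. The 18-base miR-181c-5p probe and both miR-181d-5p probes had median spot SDs of 0.147 to 0.206, against 0.086 to 0.112 for the other member probes. The cause of these turns was not tested.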
